A study of Mus musculus with 2 samples.

Results

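The C1q-positive cells of the post-ischemic mouse kidney were chosen by measured values. A barcode was taken when it had at least 1000 unique molecular identifiers (UMIs, each standing for 1 captured RNA molecule) with at most 50% from mitochondrial (mt-) genes. It also needed at least 4 UMIs and 0.2% of its UMIs from C1qa, C1qb and C1qc together, and under 2% from the neutrophil genes S100a8, S100a9 and Retnlg. This gave 218 of the 7077 cells that met the same limits on depth and mt- UMIs. Of these, 106 were among 3093 cells of the control library and 112 among 3984 cells of the JPI-289 library.

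Each library was made from the kidney of 1 male C57BL/6 mouse aged 9 weeks, taken 24 h after bilateral ischemia-reperfusion injury (IRI). The control mouse was given saline, and the treated mouse was given the poly (ADP-ribose) polymerase (PARP) inhibitor JPI-289 at 100 mg/kg, both by the intraperitoneal route just before blood flow was restored. Cells were captured in droplets and RNA was counted from its 5′ end, with 38328760 control and 35548396 JPI-289 UMIs. With 1 mouse per group there was no replicate and no test between the groups was possible, so every difference below compares these 2 libraries, and treatment and mouse cannot be told apart. The 95% intervals cover counting error only. Where a pair of values is given, the control comes first, and every ratio is a log2 ratio of JPI-289 over control. The most abundant gene of a list is the one with most UMIs over both libraries together.

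C1q is the recognition molecule that starts the classical complement pathway, and in the kidney it is made mainly by tissue macrophages. Kidney macrophages clear dead cells and immune complexes and present antigen on MHC class II molecules. After ischemia they are joined by monocytes from the blood, which can switch on macrophage genes in the tissue. PARP enzymes use NAD to attach ADP-ribose chains to proteins, above all at broken DNA.

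The 3 rule genes are given as a description, since they chose the cells. C1qa, C1qb and C1qc made up 1.15% of the UMIs of the control C1q-positive cells and 0.836% of those of the JPI-289 cells. All 3 genes were seen in 100 of 106 control cells and in 100 of 112 JPI-289 cells. In neutrophil-type cells, the same genes made up 0% of control and 0.000399% of JPI-289 UMIs, and in endothelial-type cells 0.000428% and 0%. Both kinds were chosen with under 4 C1q UMIs per cell, so low shares were set by that choice. Near the limit of the rule, 8 control and 9 JPI-289 cells lay just inside, with C1q at 0.2 to 0.3% of UMIs, and 5 and 22 cells lay just outside, at 0.1 to 0.2%. The macrophage markers made up 2.12% and 1.31% of the UMIs of the cells just inside, and 1.66% and 1.18% of those just outside. Tyrobp or Fcer1g was seen in 8 and 9 of the cells just inside, and in 4 and 22 of those just outside.

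The cells differed in depth between the libraries. The control cells had a median of 5244.5 UMIs (1304 to 22852) and 689005 UMIs in all. The JPI-289 cells had a median of 3226 UMIs (1013 to 10583) and 423856 in all. The median share of mt- UMIs was 1.99% and 2.75%. Shares of cells are therefore given after each cell was thinned at random to 1000 UMIs, and gene levels as UMIs per 10000 UMIs of the summed cells. Numbers of cells with a UMI are unthinned unless stated. No barcode was shared between the C1q-positive cells of the libraries, while 14 barcodes were shared between all cells. Doublets were not removed and no doublet caller was run.

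The name resident-type macrophage was checked against marker genes. Tyrobp or Fcer1g, signalling adaptors of myeloid cells, was seen in 106 of 106 control and 111 of 112 JPI-289 cells. Of 19 macrophage markers all were measured (20 or more UMIs in the summed libraries), with a summed share of 2.15% of control and 1.51% of JPI-289 UMIs and Lyz2 as the most abundant over both libraries (Fcer1g in the JPI-289 cells). Lymphocyte markers were near 0, with 19 and 5 UMIs in all, and 8 of 10 of them had no UMI, Cd3e and Cd79a included. Dendritic cell markers had 98 and 159 UMIs, or 0.0142% and 0.0375% of UMIs, and Xcr1, Ccr7 and Siglech had none. Mgl2, a lectin that some macrophages also make, was the most abundant, with 40 and 132 UMIs (2.41, interval 1.90 to 2.97).

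Other markers differed between the libraries. Infiltrating monocyte markers, of which 10 of 14 were measured, made up 0.520% of the UMIs of the control cells and 0.254% of those of the JPI-289 cells, with Thbs1 the most abundant. MHC class II genes, which many resident kidney macrophages express, were seen in fewer of the control cells. At least 1 UMI of Cd74, H2-Aa, H2-Ab1 or H2-Eb1 was found in 83 of 106 control and 105 of 112 JPI-289 cells without thinning, and after thinning 53 and 11 cells had none, which does not show that the genes were absent from them. Timd4, a gene of long-lived tissue macrophages, had no UMI, and Adgre1, which encodes the macrophage marker F4/80, had 81 and 12 UMIs. The cells are called C1q-positive cells, by the rule. Besides the C1q genes, Mrc1, Cd163, Mgl2, Cd83, Pf4 and Ctss led the genes that stood higher in them than in the sum of every other cell of the same library, in both libraries. Against C1q-negative monocyte-type cells alone, Mgl2, Vcam1, Zmynd15 and Cd81 came next after the C1q genes, and Cd83, Pf4 and Ctss were not among the 20 leading genes. Both orders describe the cells chosen.

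C1q-positive cells made up 3.43% of control cells (95% exact Clopper-Pearson interval 2.81 to 4.13) and 2.81% of JPI-289 cells (2.32 to 3.37), and these intervals overlapped. Against endothelial-type cells their number was nearly the same, at 33.8 (control) and 34.0 (JPI-289) per 100. Against C1q-negative monocyte-type cells, which had no C1q UMI, it was 212 and 158 per 100. Against neutrophil-type cells it was 67.9 and 20.7 per 100, as neutrophil-type cells numbered 156 in the control library and 541 in the other. In such shares, fewer C1q-positive cells and more cells of another kind cannot be told apart. Without C1q-positive cells that had a Ly6c2, Ccr2, Plac8 or Chil3 UMI, the shares of all cells were 2.39% and 2.48%, the other direction. This choice used unthinned UMIs, and such a UMI is more easily seen in the deeper control cells. The part of depth in the turned direction was not tested.

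Of 3342 genes whose UMIs summed to at least 50, 291 were at least 2-fold higher in the JPI-289 cells (8.71%) and 504 at least 2-fold lower (15.1%). The median gene had a log2 ratio of JPI-289 over control of -0.07. With genes of at least 20 UMIs, the limit used for the gene lists, 10.6% of 6235 genes were at least 2-fold higher and 18.0% at least 2-fold lower, with a median of -0.08. These shares are the background for every list below. Among genes with at least 100 UMIs, the 10 highest were the hemoglobin genes Hba-a1, Hbb-bt and Hbb-bs, then Saa3, Sesn1, Ctla2a, Mt2, Arrdc4, Stard10 and Pmvk. The 10 lowest were Mmp12, Ncf1, Chil3, Otulinl, Aif1, Ccl7, Ccl2, Ms4a7, Clec4a1 and Ntpcr.

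**Figure D1:**
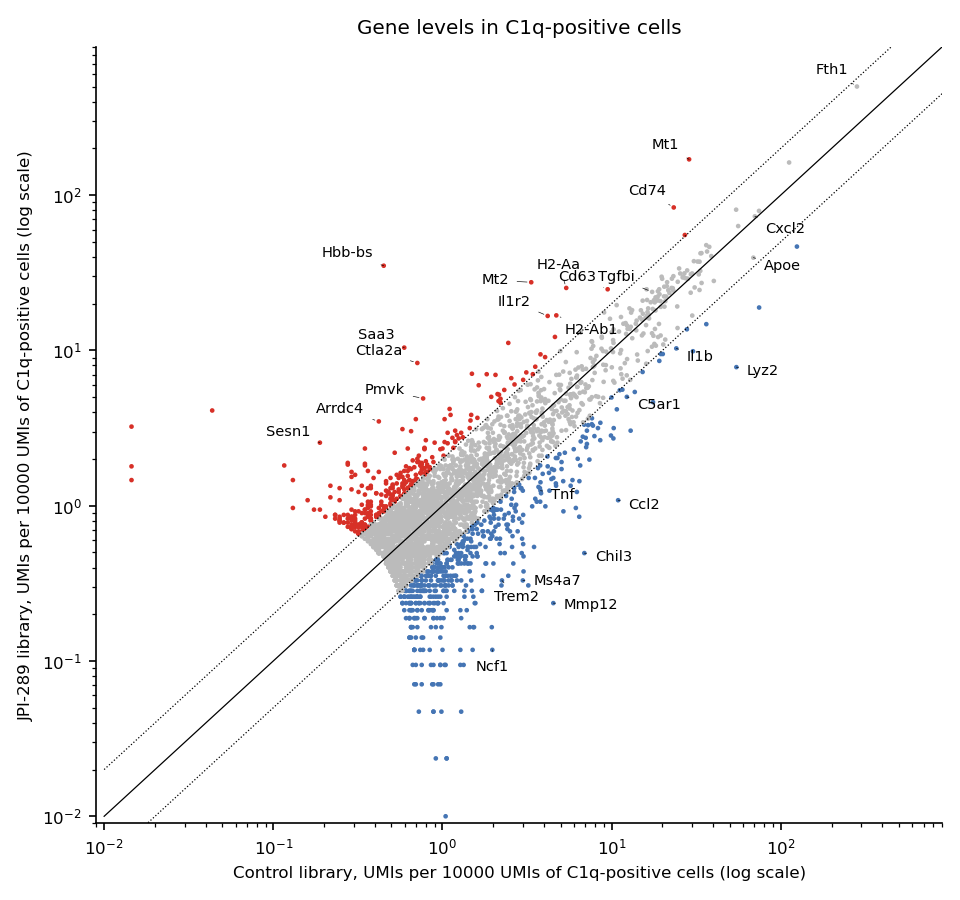
Levels of 3342 genes in the C1q-positive cells, in UMIs per 10000 UMIs, for the control library (x axis) and the JPI-289 library (y axis), both on log scales. Solid line: equal levels; dotted lines: 2-fold. Genes at least 2-fold higher in the JPI-289 library are red (291) and those at least 2-fold lower are blue (504); a gene with no UMI in a library is drawn at 0.01. Cd74, Mt1 and Mt2 lie above the upper dotted line and Lyz2, Ccl2 and Mmp12 below the lower one.

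MHC class II genes were higher in the JPI-289 C1q-positive cells. The products of H2-Aa, H2-Ab1 and H2-Eb1 form the peptide-binding chains, and Cd74, the invariant chain, guards their groove until peptide is loaded. Cd74 had 1608 control and 3533 JPI-289 UMIs, or 23.3 and 83.4 per 10000, a log2 ratio of 1.84 (1.75 to 1.92). H2-Aa had 372 and 1071 UMIs, a log2 ratio of 2.23 (2.06 to 2.40), the highest of the list. For H2-Ab1, with 325 and 713 UMIs, the log2 ratio was 1.83 (1.64 to 2.03). For H2-Eb1, with 319 and 518 UMIs, it was 1.40 (1.20 to 1.61). Outside the C1q-positive cells the direction varied. Cd74, H2-Aa and H2-Ab1 stood at 1.14, 0.96 and 0.57 in all other cells, which leave out monocyte-, neutrophil- and endothelial-type cells. In free RNA, from barcodes with few UMIs, the same genes stood at 1.06, 1.12 and 0.47. In C1q-negative monocyte-type cells all were lower, at -7.72, -6.50 and -7.10. H2-Ab1 stood at -0.77 in endothelial-type and Cd74 at 0.40 in neutrophil-type cells.

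The other genes of antigen presentation differed among themselves. Of 15 genes in the MHC class II list, 9 were measured, 4 at least 2-fold higher and 1 at least 2-fold lower, and the median log2 ratio was 0.59. H2-DMa and H2-DMb1, whose products exchange peptides on class II molecules, stood at -0.59 (-1.16 to -0.06) and -0.81 (-1.53 to -0.17). Ctss, the protease that trims the invariant chain, stood at 0.59, the co-stimulatory gene Cd86 at -0.23 (-0.61 to 0.12), and Cd80, with 21 and 5 UMIs, at -1.27 (-3.13 to 0.08). The summed list made up 0.636% of control and 1.72% of JPI-289 UMIs. The summed dendritic cell markers were higher too, at 0.0142% and 0.0375%, with Mgl2 at 2.41. The other 2 measured markers, Itgax at -0.88 (-2.42 to 0.33) and Clec10a at -0.10 (-1.07 to 0.79), had intervals that held 0. The part of dendritic cell markers in the MHC class II values was not tested.

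More of the JPI-289 cells had a UMI of these genes. After thinning, Cd74 was seen in 36.8% of control and 83.9% of JPI-289 C1q-positive cells, and without thinning in 63.2% and 91.1%. In endothelial-type cells thinned in the same way, with median depths of 3383.5 and 3338 UMIs, it was seen in 0.637% and 0.304%. H2-Aa was seen in 22.6% and 62.5% of the thinned C1q-positive cells (43.4% and 81.2% unthinned) and in 0% of the thinned endothelial-type cells. The control level rested on few cells: the 5 cells with most UMIs of Cd74, H2-Aa, H2-Ab1 and H2-Eb1 held 62.1% of these UMIs in the control, against 28.2% in the JPI-289 library.

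The start regions of H2-Aa and H2-Eb1 are shown because they show a motif that both genes share. Both are the 250 bases before the RefSeq start in GRCm38.p6, read 5′ to 3′ in the direction of the gene. H2-Aa is at chr17:34287824-34288073 on the minus strand and H2-Eb1 at chr17:34305617-34305866 on the plus strand. The capitals mark CTGATTGG, the core of the Y box of class II promoters, which was searched on both strands. Each window held 1 match, 44 bases before the start in H2-Aa and 55 bases before it in H2-Eb1, and 3.83% of 32851 RefSeq start regions of the same length held one. A match is a description of the sequence only. H2-Ab1 and Cd74 are not printed.
H2-Aa: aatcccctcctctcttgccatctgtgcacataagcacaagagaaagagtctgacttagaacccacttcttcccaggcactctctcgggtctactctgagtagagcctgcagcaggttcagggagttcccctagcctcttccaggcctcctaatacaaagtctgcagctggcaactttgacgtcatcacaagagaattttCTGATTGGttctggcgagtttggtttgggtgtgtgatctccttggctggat
H2-Eb1: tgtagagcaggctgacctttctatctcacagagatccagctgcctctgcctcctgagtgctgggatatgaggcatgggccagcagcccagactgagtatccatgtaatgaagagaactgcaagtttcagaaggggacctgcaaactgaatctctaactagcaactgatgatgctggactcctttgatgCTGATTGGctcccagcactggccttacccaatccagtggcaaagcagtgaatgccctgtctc

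The metallothionein genes Mt1 and Mt2 were another group that was higher in the JPI-289 cells. They encode small proteins that bind zinc and copper. Mt1 had 1982 control and 7210 JPI-289 UMIs, or 28.8 and 170.1 per 10000, a log2 ratio of 2.56 (2.49 to 2.64). Mt2 had 231 and 1165 UMIs, a log2 ratio of 3.03 (2.83 to 3.25). Per cell thinned to 1000 UMIs, Mt1 and Mt2 together had a median of 1 UMI in the control, with quartiles of 0 and 4, and of 18 in the JPI-289 cells, with quartiles of 8 and 28.25. The zinc importer gene Slc39a14 had 18 and 12 UMIs, with a log2 ratio of 0.14 (-1.07 to 1.25). Of 5 genes in the list, 3 were measured and 2 at least 2-fold higher, and together they made up 0.325% and 1.98% of UMIs.

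Metallothionein was also higher in the other kinds of cells. Mt1 had log2 ratios of 1.68 in C1q-negative monocyte-type, 1.58 in neutrophil-type, 1.87 in endothelial-type and 1.78 in all other cells, and of 1.62 in free RNA, taken from barcodes with 1 to 99 UMIs. In thinned endothelial-type cells Mt1 was seen in 32.2% of control and 79.0% of JPI-289 cells, against 69.8% and 97.3% of the C1q-positive cells (91.5% and 100% unthinned). The share of free RNA in the summed C1q-positive cells, set by their tubule markers, was 6.39% (control) and 10.9% (JPI-289). With free RNA subtracted, Mt1 stood at 2.64 and Mt2 at 3.11.

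The start regions of Mt1 and Mt2 are shown with matches to TGCNCNC on either strand in capitals. This pattern is looser than the core of the metal response element, TGCRCNC, where R is A or G. Both are the 250 bases before the RefSeq start in GRCm38.p6 on the plus strand. Mt1 is at chr8:94178839-94179088 with 1 match, and Mt2 at chr8:94172368-94172617 with 5 matches. The Mt2 matches GGGAGCA and TGCTCTC fit only the looser pattern. At least 1 match to the looser pattern was found in 44.4% of the start regions of the same length, and at least 4 in 1.28%.
Mt1: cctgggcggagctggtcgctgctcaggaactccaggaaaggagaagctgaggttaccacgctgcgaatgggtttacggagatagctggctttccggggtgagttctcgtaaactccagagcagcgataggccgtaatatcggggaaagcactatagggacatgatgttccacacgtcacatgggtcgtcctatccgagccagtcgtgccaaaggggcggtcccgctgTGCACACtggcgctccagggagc
Mt2: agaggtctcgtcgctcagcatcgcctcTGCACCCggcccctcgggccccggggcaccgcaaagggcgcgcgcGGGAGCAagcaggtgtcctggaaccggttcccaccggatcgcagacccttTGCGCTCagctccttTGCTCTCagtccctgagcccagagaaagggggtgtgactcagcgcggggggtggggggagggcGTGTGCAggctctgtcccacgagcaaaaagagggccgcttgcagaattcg

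**Figure D2:**
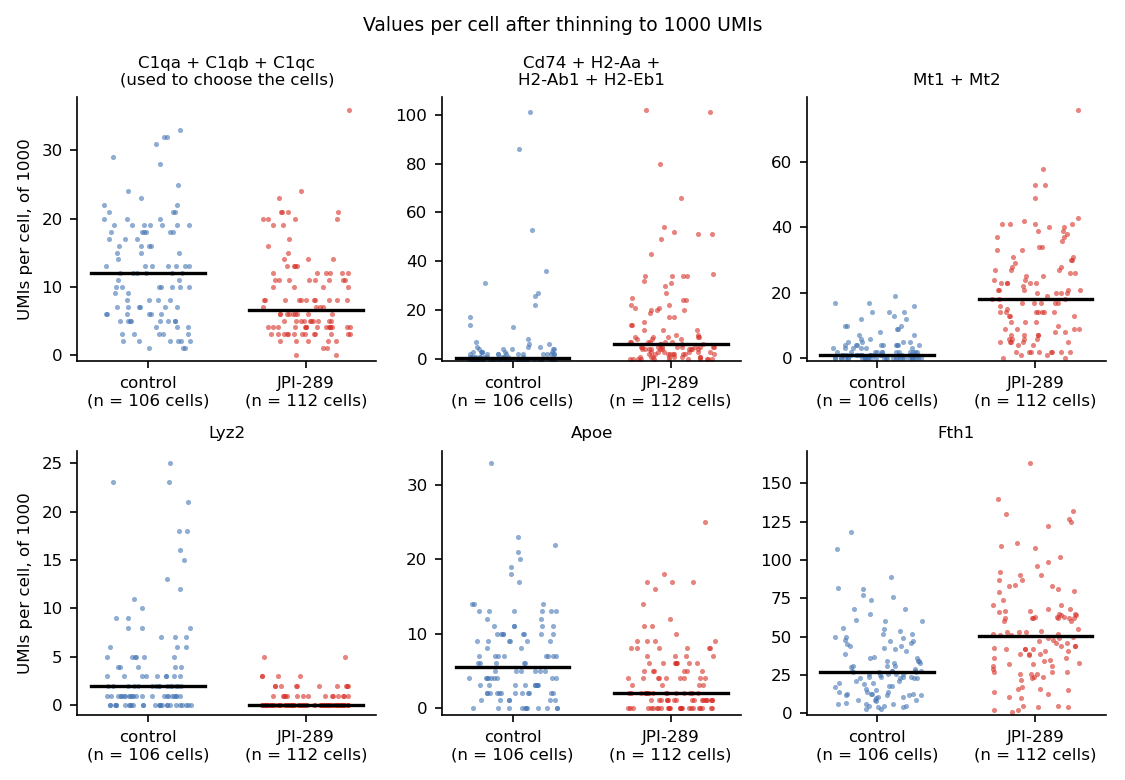
UMIs per cell of 6 genes or gene sums after each C1q-positive cell was thinned to 1000 UMIs, for 106 control cells (blue) and 112 JPI-289 cells (red). Points are cells and black lines are medians. The median of Mt1 and Mt2 was 1 (control) and 18 (JPI-289), while that of Lyz2 was 2 and 0; cells of both libraries overlap in every panel.

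Fth1, the heavy chain of the iron store ferritin, had the most UMIs of the iron and heme list. It had 282.7 and 500.9 UMIs per 10000, a log2 ratio of 0.83 (0.80 to 0.85), with a median of 27 UMIs per thinned control cell and 50.5 per thinned JPI-289 cell. Ftl1, the light chain, stood at 0.09 and Hmox1, which breaks down heme, at 0.12. Blvrb, which encodes biliverdin reductase B, had 179 and 27 UMIs, a log2 ratio of -2.01 (-2.67 to -1.44). Of 14 measured genes of this list, 1 was at least 2-fold higher and 4 at least 2-fold lower.

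In the list of p53 targets and DNA damage genes, 4 of 14 measured genes were at least 2-fold higher and 1 at least 2-fold lower, with a median of 0.05, beside a median of -0.08 for all genes. Sesn1, a p53 target that restrains growth signalling, had 13 and 108 UMIs, a log2 ratio of 3.71 (2.92 to 4.71). Trp53inp1, another p53 target, had 19 and 80 UMIs (2.75), and Ddit4, which also restrains growth signalling, 142 and 295 (1.75). Cdkn1a, the cell cycle inhibitor p21, had 453 and 553 UMIs and stood at 0.99 (0.81 to 1.17). In contrast Bax, a p53 target that promotes cell death, stood at -0.92 (-1.40 to -0.48). Outside the C1q-positive cells, Cdkn1a stood at 1.75 in endothelial-type cells, 1.96 in all other cells and 1.69 in free RNA. In C1q-negative monocyte-type and neutrophil-type cells Cdkn1a stood at -0.52 and -0.50.

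Arrdc4, an arrestin-like gene switched on by glucose, had 29 and 148 UMIs, a log2 ratio of 3.03 (2.47 to 3.68), and the same gene stood at 2.63 in C1q-negative monocyte-type and 2.56 in endothelial-type cells. Sesn1 was also higher in endothelial-type cells (1.82) and in all other cells (1.86). Other genes were high in the C1q-positive cells of the JPI-289 library with lower ratios elsewhere, a difference that was not tested. Pmvk, an enzyme of cholesterol synthesis, had 53 and 208 UMIs, a log2 ratio of 2.66 (2.23 to 3.14), and stood at -0.61 in C1q-negative monocyte-type, -1.68 in endothelial-type and -0.53 in all other cells. Stard10, a lipid transfer gene, had 24 and 99 UMIs (2.72) and stood at 0.55 in C1q-negative monocyte-type cells, from 5 and 10 UMIs, 0.07 in endothelial-type and -0.33 in all other cells. Ctla2a, a protease inhibitor gene, had 49 and 352 UMIs (3.53), against 0.92 in C1q-negative monocyte-type cells, from 5 and 13 UMIs, and 0.74 in endothelial-type cells, where it was seen in 55.7% and 57.4% of thinned cells, beside 2.83% and 17.9% of the C1q-positive cells (10.4% and 24.1% unthinned).

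Some of the highest ratios rested on single cells. Hbb-bs, a hemoglobin gene, had 31 and 1489 UMIs, of which 97.4% came from 1 JPI-289 cell. Red blood cell genes made up 35.4% of the UMIs of that cell, and Hbb-bs stood at 1.17 without the top cell of each library. Saa3, an acute phase gene, had 41 and 442 UMIs (4.12, interval 3.67 to 4.63), with 40.3% from 1 cell, and was seen in 2.83% and 10.7% of thinned cells (5 and 16 cells unthinned) and in 0% of thinned endothelial-type cells. Without the cell with most UMIs of the gene in each library, Saa3 stood at 3.97. In C1q-negative monocyte-type cells Saa3 had 139 and 962 UMIs (2.41), and in neutrophil-type cells 275 and 200 (-2.36).

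Macrophage marker genes were mostly lower in the JPI-289 C1q-positive cells. Of 19 macrophage markers, 9 were at least 2-fold lower and 0 at least 2-fold higher, with a median log2 ratio of -0.89. In C1q-negative monocyte-type cells, 16 of these markers were measured, with a median of -0.83. Lyz2 (chr10:117277331-117282321, minus strand), which encodes lysozyme, had 3772 control and 331 JPI-289 UMIs, or 54.7 and 7.81 per 10000, a log2 ratio of -2.81 (-2.98 to -2.65). It was seen in 75.5% and 27.7% of thinned cells (92.5% and 50.9% unthinned) and in 0.637% and 0.304% of thinned endothelial-type cells. Aif1, the actin-binding marker Iba1, had 135 and 7 UMIs (-3.47, interval -4.91 to -2.49). Adgre1 stood at -2.004 (-3.06 to -1.17), Cd68 at -1.39 (-1.68 to -1.12), and Csf1r, the receptor for the main macrophage growth factor, at -0.89 (-1.18 to -0.61). Cx3cr1, the fractalkine receptor, had 40 and 2 UMIs, a log2 ratio of -3.32 (-6.72 to -1.67).

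The other members of this list ranged more widely. Tyrobp stood at -0.44 (-0.54 to -0.33), Itgam, an integrin chain, at -0.79 (-1.07 to -0.52) and Ptprc, the leukocyte marker CD45, at -0.38 (-0.78 to 0.00375). Fcer1g had 29.7 and 31.0 UMIs per 10000 (0.07, interval -0.03 to 0.17), and Spi1, a myeloid transcription factor, stood at -0.11. Laptm5, a lysosomal membrane gene of blood cells, was higher, at 0.87 (0.72 to 1.01).

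The resident and tissue macrophage list was lower by its count. Of 28 genes, 20 were measured, 1 at least 2-fold higher and 8 at least 2-fold lower, with a median of -0.60. In C1q-negative monocyte-type cells, the median was -0.85 over 12 measured genes. Ms4a7, a membrane gene of tissue macrophages, had 206 and 14 UMIs (-3.13, interval -4.07 to -2.40), and Trem2, a lipid receptor, 155 and 14 (-2.72, interval -3.67 to -1.98). Stab1, a scavenger receptor, had 204 and 26 UMIs (-2.25). Apoe, a lipid carrier, had the most UMIs of the list, with 69.0 and 39.6 per 10000 (-0.80, interval -0.88 to -0.72). Mrc1, the mannose receptor CD206, had 166 and 118 UMIs and stood at 0.21 (-0.14 to 0.56), and Dab2 stood at -0.04. Ltc4s, the enzyme that makes leukotriene C4, was the member that was higher, with 25 and 55 UMIs (1.82, interval 1.13 to 2.58).

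Genes of cell uptake were lower as well. In the list of scavenger and efferocytosis receptors, 11 of 21 measured genes were at least 2-fold lower and 0 at least 2-fold higher, with a median of -1.19. Msr1, a scavenger receptor, had 204 and 33 UMIs (-1.91), and Cd300lf, a receptor for lipids on dying cells, 88 and 9 (-2.52, interval -3.76 to -1.60). Mertk and Axl, receptor kinases for dying cells, had 63 and 40 UMIs (0.05) and 59 and 27 (-0.41), with intervals that held 0. Among Fc receptors, Fcgr1 was lower, with 151 and 26 UMIs (-1.81), and the inhibitory Fcgr2b was not, with 537 and 453 (0.46, interval 0.27 to 0.64).

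Complement genes were lower too. Of 6 measured genes of the complement list, which leaves out the C1q genes, 4 were at least 2-fold lower. C5ar1 had 849 and 213 UMIs (-1.29, interval -1.52 to -1.08), C3ar1 261 and 45 (-1.82, interval -2.33 to -1.37), and Cfp, which encodes properdin of the alternative pathway, 255 and 56 (-1.48). C3 was near 0, with 9 and 6 UMIs.

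Infiltrating monocyte markers were lower in the JPI-289 cells. Chil3, a chitinase-like gene of inflammatory monocytes, had 476 and 21 UMIs (-3.77, interval -4.51 to -3.17), with 57.1% of the JPI-289 UMIs from 1 cell. F13a1, the A chain of factor XIII, had 510 and 84 (-1.89) and is counted in the resident and tissue macrophage list as well. Ncf1, a subunit of the oxidase of phagocytes that is outside the list, had 136 and 5 (-3.93). All 10 measured infiltrating monocyte markers were lower, 7 of them at least 2-fold, beside 2924 of all 6235 genes higher by any amount. Ccr2, the receptor that draws monocytes into tissue, had 53 and 12 UMIs (-1.40, interval -2.48 to -0.52), and Ly6c2 had 8 and 1. When cells with a UMI of Ly6c2, Ccr2, Plac8 or Chil3 were left out, 74 control and 99 JPI-289 cells remained. Of 62 named genes past 2-fold, 57 were then still past 2-fold in the same direction, with 176 genes at least 2-fold higher and 349 at least 2-fold lower of 2140. The part of infiltrating cells in the other differences was not tested.

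Mmp12 (chr9:7344381-7369499, plus strand), a macrophage elastase, had the lowest ratio of all genes with at least 100 UMIs. It had 312 control and 10 JPI-289 UMIs, a log2 ratio of -4.19 (-5.34 to -3.36), and no UMI in C1q-negative monocyte-type cells of either library. It was seen in 22.6% and 1.79% of thinned cells (38 and 6 cells unthinned) and in 0% of thinned endothelial-type cells. The list of alternative activation and repair, which holds Mmp12, had 9 of 21 measured genes at least 2-fold lower and 3 at least 2-fold higher. Tgfbi, a matrix gene, had the most UMIs of the list over both libraries, with 1198 and 1010 (0.45, interval 0.33 to 0.58). The list of classical activation had 2 of 10 measured genes at least 2-fold higher and 4 at least 2-fold lower.

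**Figure D3:**
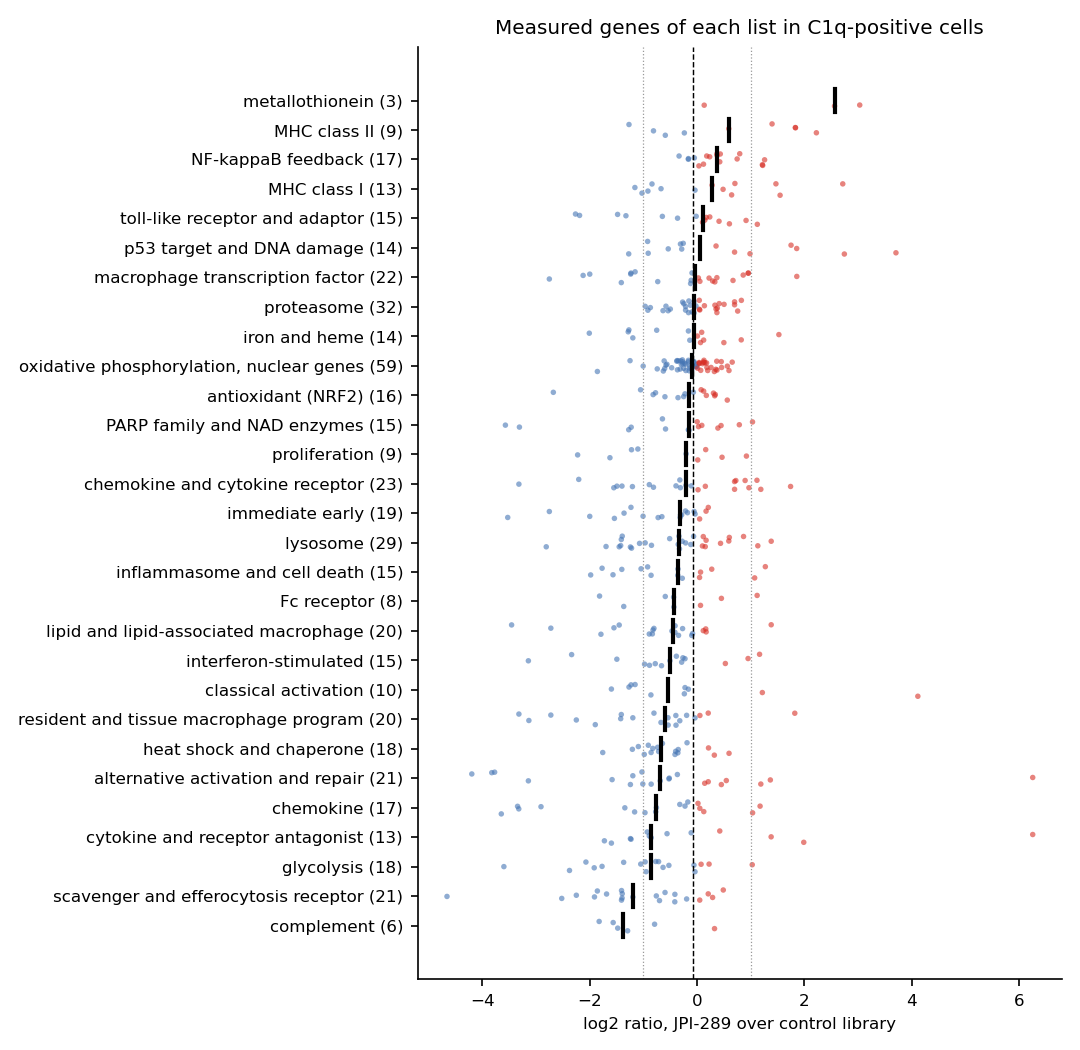
Log2 ratio of the JPI-289 over the control library for the measured genes (at least 20 UMIs) of each list in C1q-positive cells, with the number measured in brackets. Points are genes (red above 0, blue below), black bars are list medians, the dashed line is the median of all genes and dotted lines are 2-fold; genes with no UMI in 1 library, such as Il10, are drawn with 0.5 UMIs added. Among the lists drawn, which leave out the cell type marker lists, metallothionein (2.56) and MHC class II (0.59) have the highest medians, complement (-1.38) and scavenger receptors (-1.19) the lowest.

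Chemokine genes differed among themselves. Ccl2 (chr11:82035571-82037453, plus strand), which draws monocytes, had 754 control and 46 JPI-289 UMIs, or 10.9 and 1.09 per 10000, a log2 ratio of -3.32 (-3.80 to -2.90), and 47.8% of the JPI-289 UMIs came from 1 cell. It was seen in 19.8% and 2.68% of thinned C1q-positive cells (30.2% and 6.25% unthinned) and in 4.46% and 1.82% of thinned endothelial-type cells. Ccl7, a related chemokine, had 222 and 13 UMIs (-3.34), seen in 9.43% and 0.893% of thinned cells (16 and 1 unthinned). Ccl4 had 1321 and 363 UMIs (-1.16), and Ppbp, a platelet chemokine, 444 and 36 (-2.91), with 55.6% of the latter from 1 cell. Cxcl2, which draws neutrophils, had the most UMIs of the list, with 70.4 and 73.1 per 10000 (0.05, interval -0.01 to 0.12). Ccl3 stood at 0.13 (-0.02 to 0.28), and Cxcl1, another neutrophil chemokine, was higher, with 236 and 298 UMIs (1.04, interval 0.79 to 1.29; 0.98 without the top cell of each library). In the list, 2 of 17 measured genes were at least 2-fold higher and 6 at least 2-fold lower. Ccl5 had no UMI in either library.

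Of 13 measured cytokine and antagonist genes, 3 were at least 2-fold higher (Il1a, Il1r2 and Il10) and 4 at least 2-fold lower (Il1b, Tnf, Il1rn and Tnfsf12). Il1b had 1665 and 437 UMIs, or 24.2 and 10.3 per 10000 (-1.23, interval -1.38 to -1.08), and Tnf 262 and 53 (-1.59, interval -2.06 to -1.17), both pro-inflammatory. Il1a, also pro-inflammatory, went the other way, with 26 and 42 UMIs (1.38, interval 0.65 to 2.16). Il1r2, a decoy receptor for interleukin-1, had 289 and 707 UMIs (1.99, interval 1.79 to 2.19), but the receptor antagonist Il1rn had 72 and 13 (-1.72). Il10, an anti-inflammatory cytokine, had no UMI in the control and 23 UMIs in 9 JPI-289 cells, 30.4% of them from 1 cell. Il6 had 4 and 9 UMIs. In the NF-kappaB feedback list, 3 of 17 measured genes were at least 2-fold higher and 0 at least 2-fold lower, with a median of 0.37. Tnfaip3, which switches the pathway off, had 160 and 236 UMIs (1.26, interval 0.97 to 1.56), and Nfkbia, the most abundant, stood at 0.37.

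Lysosome and lipid genes were divided. Of 29 measured lysosome genes, 2 were at least 2-fold higher and 9 at least 2-fold lower. Cd63, a membrane protein of lysosomes and vesicles, had 654 and 1050 UMIs (1.38, interval 1.24 to 1.53), while Ctsc, a protease, had 591 and 112 (-1.69). Spp1, osteopontin, had 1394 and 463 UMIs (-0.89, interval -1.04 to -0.74), but 42.6% of the control UMIs came from 1 cell and the ratio without the top cell of each library was -0.17.

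Glycolysis genes were lower in 15 of 18 measured genes, 7 of them at least 2-fold. Of all 6235 genes at the same limit, 2924 were higher by any amount. Aldoa, aldolase, had 707 and 115 UMIs (-1.91, interval -2.22 to -1.63), Ldha, lactate dehydrogenase, 412 and 98 (-1.37), and Slc16a3, a lactate exporter, 88 and 4 (-3.60, interval -5.67 to -2.35). Gapdh, with 2775 and 1188 UMIs, stood at -0.52 and Pkm at -0.06, while Pfkfb3, a regulator that drives the pathway, had 58 and 73 UMIs (1.03, interval 0.52 to 1.56). The nuclear genes of oxidative phosphorylation, in contrast, stood at the median gene: 0 of 59 were at least 2-fold higher and 3 at least 2-fold lower, with a median of -0.09 and a summed share of 1.51% in both libraries. None of 32 proteasome genes was past 2-fold either way, with a median of -0.05.

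Parp1 (chr1:180568924-180601254, plus strand), the main PARP gene, had only 28 control and 7 JPI-289 UMIs (-1.23, interval -2.74 to -0.07). In the list of PARP family and NAD enzymes, 1 of 15 measured genes was at least 2-fold higher and 4 at least 2-fold lower. Bst1, an NAD-consuming surface enzyme, had 67 and 3 UMIs (-3.57, interval -6.09 to -2.17), and Adprh, which removes ADP-ribose from arginine, 88 and 5 (-3.31). Cd38, the most abundant, had 133 and 73 UMIs and stood at -0.16 (-0.60 to 0.26). These values are RNA levels and do not measure PARP activity.

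The remaining lists are given by their counts at least 2-fold higher and at least 2-fold lower. MHC class I had 3 of 13 measured genes at least 2-fold higher and 2 at least 2-fold lower. H2-Q6 had 11 and 46 UMIs (2.72), though its reads can be shared with near-identical H2-Q genes, and B2m, the shared light chain, stood at 0.71 (0.55 to 0.86). Of interferon-stimulated genes, 1 of 15 was at least 2-fold higher and 3 at least 2-fold lower, with Ly6e at 546 and 119 UMIs (-1.49). Heat shock genes had 0 and 3 of 18, toll-like receptors and adaptors 1 and 4 of 15, antioxidant genes 0 and 2 of 16, and chemokine and cytokine receptors 3 and 6 of 23. Immediate early genes had 0 and 7 of 19, with the lowest ratios for Myc with 65 and 3 UMIs (-3.53, interval -6.05 to -2.13), Klf4 with 169 and 15 (-2.75) and Atf3 with 405 and 62 (-1.997), while Dusp1, the most abundant over both libraries, stood at 0.17. Macrophage transcription factors had 1 and 7 of 22, with Id2 at 113 and 253 UMIs (1.86) and Klf4, which is in both lists, among the lower. Lipid genes had 1 and 5 of 20, inflammasome and cell death genes 2 and 5 of 15, Fc receptors 1 and 2 of 8, and proliferation genes 0 and 4 of 9.

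Markers of other cells were set beside these results. Proximal tubule markers, 10 of 12 measured, made up 0.182% of the UMIs of the C1q-positive cells in both libraries, with Gpx3 the most abundant, and Kap, a proximal tubule gene, stood at 0.35 (0.02 to 0.67). Injured tubule markers, 6 of 7 measured, made up 0.0209% and 0.0406%, with Lcn2 the most abundant (50 and 89 UMIs), and loop, distal tubule and collecting duct markers, 0 of 9 measured, 0.00363% and 0.00731%, with Umod the most abundant over both libraries and Calb1 in the JPI-289 cells. Endothelial markers, 4 of 8 measured, made up 0.0253% and 0.0231%, with Plvap the most abundant over both libraries, nearly all of it from 1 cell in each, and Emcn in the JPI-289 cells. Stroma markers, 1 of 8 measured, made up 0.00493% and 0.00118%, with Acta2 the most abundant and Postn and Dcn at 0. Red blood cell genes, 4 of 5 measured, made up 0.00522% and 0.445%, nearly all of the latter from the cell named above. Neutrophil markers outside the rule made up 0.0492% and 0.168%, most of it Il1r2, and Ly6g had no UMI. S100a8, a rule gene, had 28 and 23 UMIs. Their part in the results was not tested.

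Among 1129 genes with at least 100 UMIs in both C1q-positive and C1q-negative monocyte-type cells, 20 were at least 2-fold higher in the JPI-289 library in both kinds of cells and 47 at least 2-fold lower in both. Lyz2 was lower in C1q-negative monocyte-type cells too, with 3518 and 1463 UMIs (-1.64), in neutrophil-type cells (-2.24) and in free RNA (-1.68). Il1b stood at -1.04 in the monocyte-type cells and Trem2 at -2.09. Ccl2, with 384 and 303 UMIs there, stood at -0.72, against -3.32 in the C1q-positive cells, and in endothelial-type cells, with 323 and 21 UMIs, at -3.66. The difference between the kinds of cells was not tested.

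**Figure D4:**
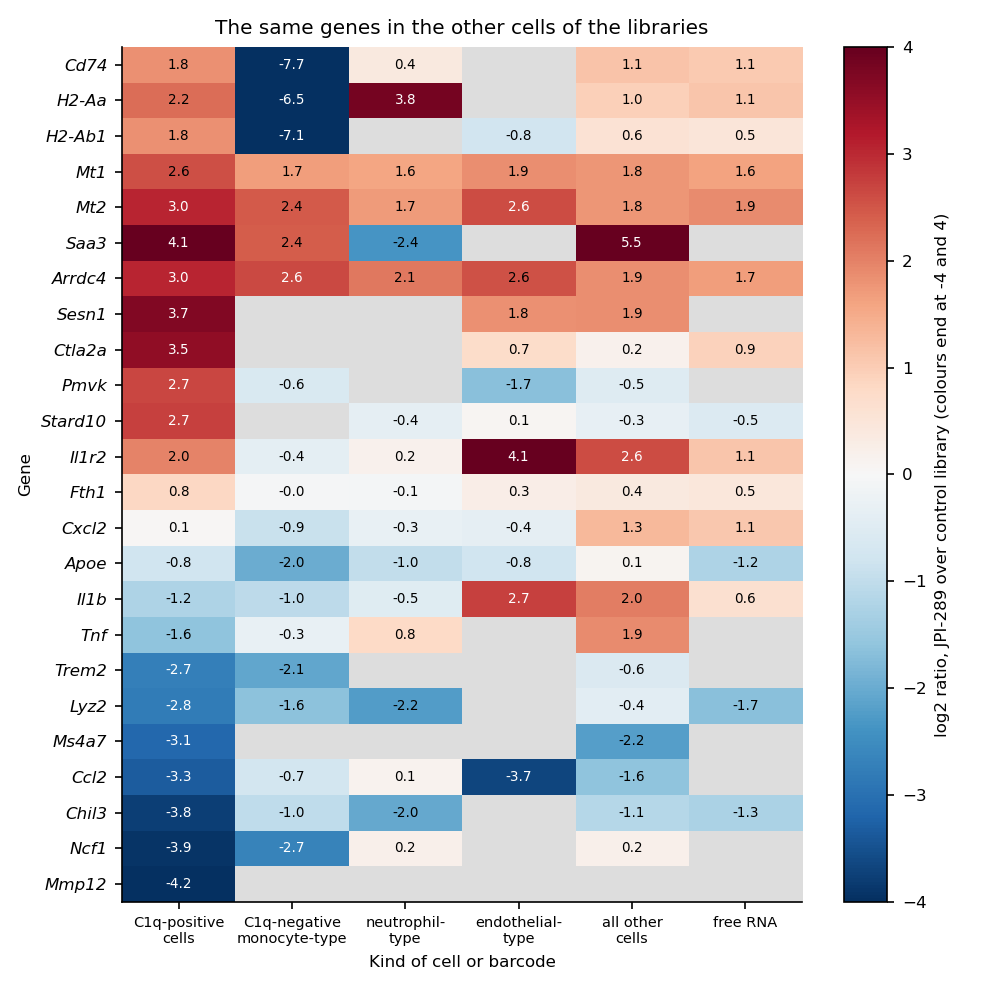
Log2 ratio of the JPI-289 over the control library for 24 genes (rows) in C1q-positive cells, 4 other kinds of cells and free RNA (columns). Red is higher and blue lower in the JPI-289 library, and grey marks under 20 UMIs over both libraries; Chil3 was used to choose the monocyte-type cells. Mt1, Mt2 and Arrdc4 are above 0 in every column, while Cd74 is 1.84 in C1q-positive and -7.72 in C1q-negative monocyte-type cells.

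The C1q-positive cells were then split by their own MHC class II level, a split chosen after the values were seen. Cells with at least 4 of 1000 UMIs from Cd74, H2-Aa, H2-Ab1 and H2-Eb1 numbered 23 of 106 in the control (21.7%, 95% exact interval 14.3 to 30.8) and 78 of 112 in the JPI-289 library (69.6%, interval 60.2 to 78.0). The 2 classes are ranges of 1 value and not cell types: 11 control and 16 JPI-289 cells had 3 or 4 such UMIs. Among cells with at least 4, Cd74 itself stood at -0.09. Lyz2 stood at -1.58 (-1.86 to -1.30) in cells with at least 4 and -2.73 (-3.004 to -2.49) in cells with fewer, and the first was -1.001 without the top cell of each library. Mt1 stood at 3.36 (3.16 to 3.57) and 2.01 (1.91 to 2.10).

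Several genes kept their direction in both ranges. Tnf stood at -1.87 in cells with at least 4 and -2.52 in cells with fewer, Trem2 at -2.43 and -2.20, and Mmp12 at -5.90 and -3.16. Sesn1 stood at 3.51 and 3.61 and Ctla2a at 4.01 and 3.48, but with few control UMIs in cells with at least 4. There Sesn1 had 2 control and 74 JPI-289 UMIs, and Ctla2a 5 and 231. Ccl2 was seen mostly in cells with fewer than 4, where it had 748 control and 36 JPI-289 UMIs (-2.33). In the others it had 6 and 10 UMIs, or 0.558 and 0.355 per 10000 (-0.70, interval -2.25 to 1.09), with all 10 JPI-289 UMIs from 1 cell. Apoe was -0.53 in cells with at least 4 and -1.69 in cells with fewer, and Spp1 stood at 0.49 (0.16 to 0.85) and -1.29 (-1.57 to -1.04). The latter rested largely on 1 control cell, and without the top cell of each library in the range it was -0.67.

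**Figure D5:**
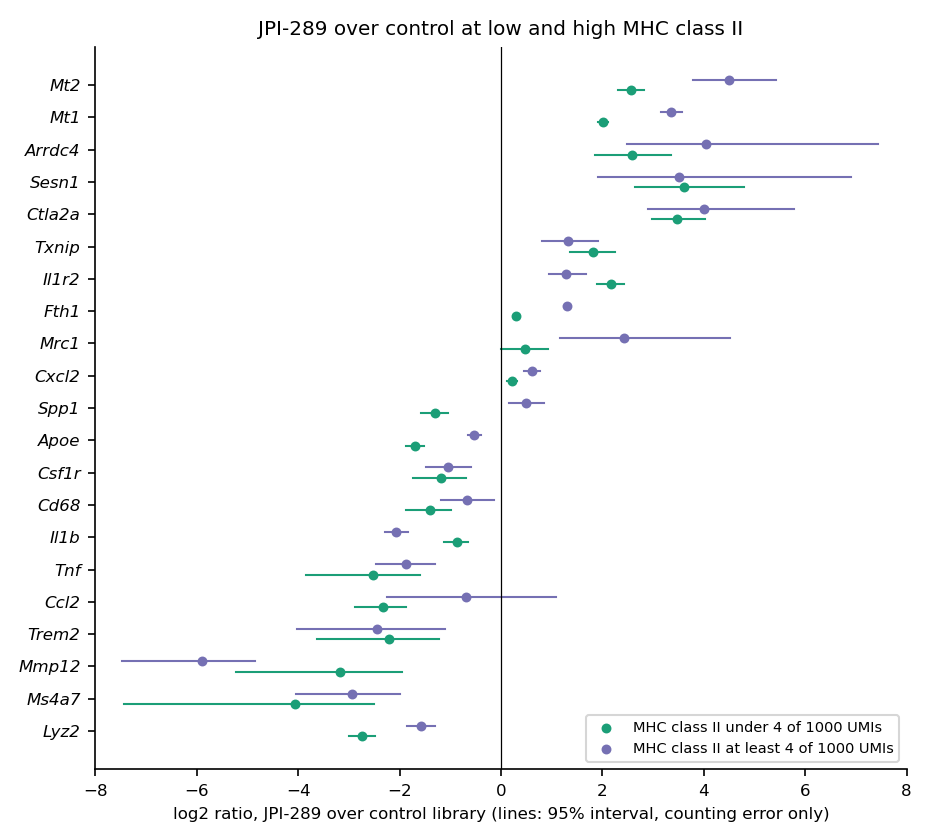
Log2 ratio of the JPI-289 over the control library for 21 genes in C1q-positive cells with at least 4 (purple; 23 control and 78 JPI-289 cells) or under 4 (green; 83 and 34 cells) of 1000 UMIs of MHC class II genes. Lines are 95% intervals for counting error only, ended at -8 and 8. Lyz2, Ms4a7, Mmp12 and Tnf lie below 0 and Mt1, Mt2, Sesn1 and Ctla2a above 0 in both ranges. Spp1 under 4 rests largely on 1 control cell (-1.29, and -0.67 without the top cell of each library).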

How the data were processed

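The authors deposited, for each library, a matrix of UMI counts per gene and barcode, not normalized and not filtered for cells; per the labels, reads were processed with Cell Ranger 5.0.1 against mm10. Counts were read with Python 3.11.15 (numpy 2.4.6, scipy 1.17.1, pandas 2.3.3) and figures drawn with matplotlib 3.10.9. The libraries held 32285 genes and 3849 (control) and 4506 (JPI-289) barcodes with at least 1000 UMIs, of which 756 and 522 were removed for over 50% mt- UMIs. C1q reached 4 UMIs in 111 and 139 cells, of which 5 and 26 were below 0.2% and 0 and 1 were removed by the neutrophil genes.

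C1q-negative monocyte-type cells had no C1q UMI, at least 2 UMIs of Tyrobp and Fcer1g, and at least 4 UMIs and 0.2% from Csf1r, Ccr2, Ly6c2, Plac8, Ms4a6c, Chil3, Vcan and F13a1. Neutrophil-type cells had at least 2% from S100a8, S100a9 and Retnlg and under 4 C1q UMIs. Endothelial-type cells had at least 4 UMIs and 0.3% from Pecam1, Cdh5, Emcn, Kdr, Egfl7 and Plvap and under 4 C1q UMIs. All cells outside these kinds were summed as all other cells.

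UMIs were summed over the cells of a library, and the log2 ratio was taken of UMIs plus 0.5 over the total UMIs. Exact binomial 95% intervals on the split of UMIs cover counting error only. Lists counted genes with at least 20 UMIs. No test was made, as each group was 1 library. Named genes were, for each list, the most abundant and, with at least 50 UMIs, the highest and the lowest; the 10 highest and 10 lowest of all genes with at least 100 UMIs; and a fixed set of 25 genes. Some genes taken by this rule are not reported here. Other genes named were chosen after their values were seen. Members and lists were chosen with earlier results of these data known. Gene positions are from GENCODE vM21 and start regions from RefSeq, both on GRCm38, and 89 of 111 named genes had a start region. Mx1 and Clec7a were not analysed here. Aldoa and Ddit3 each have 2 gene IDs, and the ID with UMIs was used. Alternatives varied the limits on UMIs, mt- UMIs, C1q and neutrophil genes, the treatment of possible doublets and free RNA, the scaling, the added UMIs and the gene filter.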

Additional observations from a re-analysis of the deposited data

Results flagged for a closer look

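Of 1129 genes with at least 100 UMIs in both kinds of cells, 6 were at least 2-fold higher in the JPI-289 library in 1 of C1q-positive and C1q-negative monocyte-type cells and at least 2-fold lower in the other, while 67 were past 2-fold in the same direction. With 1 library per group, the difference between the kinds of cells was not tested. Cd74 had a log2 ratio of 1.84 in C1q-positive and -7.72 in C1q-negative monocyte-type cells, where it had 1055 and 6 UMIs. H2-Aa stood at 2.23 and -6.50 (244 and 3 UMIs), and H2-Ab1 at 1.83 and -7.10 (263 and 2 UMIs). H2-Eb1 stood at 1.40 in C1q-positive cells and had 305 and 0 UMIs in the others, where the value with 0.5 UMIs added was -9.63 and is no bound. In the control, 1867 MHC class II UMIs of the monocyte-type cells lay in 7 of 50 cells, and the top 5 cells held 99.9% of them. Lcn2, a gene of injured tubules and neutrophils, stood at 1.53 (50 and 89 UMIs) and -1.17 (419 and 242 UMIs), but 41.6% of its 89 UMIs came from 1 cell, and without the top cell of each library the first value was 0.91, under 2-fold. Gm26917, a non-coding RNA gene, stood at -1.32 (592 and 145 UMIs) and 1.22 (111 and 336 UMIs), and without the top cell of each library the first value was -0.79, also under 2-fold.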

How the results depend on the processing

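No paired analysis was possible because each group was 1 library, and no replicate could be left out. Of the 62 named genes past 2-fold, 55 to 62 were still past 2-fold in the same direction under each alternative run on all C1q-positive cells or on a subset, except 47 in cells with at least 4 MHC class II UMIs of 1000. Many of these genes were named for their high or low ratios in the same cells, so the number kept is no test of them. The gene filters change no ratio, and a neutrophil limit of 0.5% kept the same cells. The share of C1q-positive cells was 2.07% of control and 2.02% of JPI-289 cells at a minimum of 500 UMIs, 4.85% and 3.79% at 2000 UMIs, and 2.72% and 1.76% with C1q at 0.5%, where 180 genes were at least 2-fold higher. Without cells with a Ly6c2, Ccr2, Plac8 or Chil3 UMI, the share was 2.39% of control and 2.48% of JPI-289 cells, so its direction turned. These cells were left out by unthinned UMIs, and the part of the greater depth of the control cells was not tested. In this alternative 176 genes were at least 2-fold higher. Ccr2 and Chil3 each stood at 0.18, since the alternative removed every UMI of both. The gene filter set the counts, with 660 higher and 1120 lower at 20 UMIs and 46 and 115 at 200 UMIs. The next alternatives were added after seeing the data. Within cells with at least 4 MHC class II UMIs, 135 genes were at least 2-fold higher and 132 lower, and the sums of the MHC class II list (-0.0683) and of Cd74 and H2-Aa (-0.0188), Cd74 (-0.0850) and Hspb1 (0.28) turned direction, the first 3 by a split on the same genes and the last for a cause that was not tested. With at least 2 such UMIs, 38.7% of control and 83.0% of JPI-289 cells counted as MHC class II high, and with at least 8, 11.3% and 42.9%.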
